A study of Drosophila melanogaster with 2 samples.

Results

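Binding of STAT92E at chinmo and th was examined in the adult Drosophila intestine. The peaks are those of the deposited list whose chromosome, start and end equal the intervals given for these genes in the study's supplementary list of putative targets. This gave 3 peaks of the 1487 in the list, 1 at chinmo and 2 at th. The data came from 1 STAT92E ChIP library and 1 input library. Both were made from adults in the W1118 background that carried esgts>Upd and STAT92E and were kept at 29°C for 10 days. About 400 midguts, free of hindgut and Malpighian tubules, were used. The esgts driver combines esg-Gal4 with a temperature-sensitive Gal80, so that the ligand Upd and the transcription factor STAT92E were overexpressed in the progenitor cells, while the chromatin came from all cells of the midgut. The antibody for the ChIP library was raised in mouse against residues 100 to 150 of STAT92E, and no antibody was used for the input. Neither a replicate nor a ChIP library of a control genotype was analysed here, and the errors given cover counting only. The peaks were called on this same pair of libraries, so an excess of ChIP over input went into their choice. The folds and intervals below take the peaks and their edges as given and make no allowance for this.

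In the JAK/STAT pathway of the fly, a secreted Upd ligand binds the receptor Dome, the kinase Hop phosphorylates STAT92E, and STAT92E dimers enter the nucleus and bind DNA. The pathway drives intestinal stem cells to divide when the gut is damaged. chinmo (CG31666) encodes a transcription factor with a BTB domain and zinc fingers, which is known in the fly testis as a JAK/STAT target that maintains the somatic stem cells. th (thread, CG12284) encodes DIAP1, the inhibitor of apoptosis that holds the caspases Dronc and Drice in check and is itself antagonised by Reaper, Hid and Grim. Thus one gene acts in self-renewal and the other in survival.

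The STAT92E sites annotated around the peaks are palindromes with the arms TTC and GAA, separated by 2, 3 or 4 bases of any kind. Within 500 bp of the chinmo peak 1 such site is annotated. At th, 3 sites are annotated around the peak in the 5′ UTR and 1 around the peak in the first intron. Among the 59 annotated peaks of 30 genes, the median was 2 sites, 18 peaks had 1 site and 23 had 3 or more. These numbers were copied from the annotation. The sequence itself was not searched, and how far the sites lie from the summits is unknown. Sites at the other listed peaks or in windows without a peak were not counted. Whether the numbers at chinmo and th exceed chance is therefore unknown.

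The chinmo peak spans 1691120 to 1691289 on 2L (170 bp, build dm3) and is annotated in the third intron. It had 113 normalized ChIP reads (95% Poisson interval 92.9 to 136), against 1.45 normalized input reads. By the steps on which the values lie, 1 input read weighed 0.582 ChIP reads, so this input was 2.5 reads, parts of reads included. The ratio of ChIP to input was 77.5, and with so few input reads its 95% Clopper-Pearson interval ran from 23.6 to 473. The one-sided lower limit, with the input set to its 95% Poisson upper limit, was 27.6-fold. It takes the ChIP reads as counted, without their error.

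The first th peak spans 16042730 to 16042829 on 3L (100 bp) and is annotated in the 5′ UTR. Its reads numbered 112 in the ChIP library (92.0 to 134), against 3.20 in the input, or 5.5 reads. This is a 34.9-fold enrichment (15.1 to 103), and it was the only one of the 3 peaks with an input above 3 reads, the floor at and under which a fold is given with a lower limit. The ChIP reads of chinmo and of this peak did not differ beyond counting error.

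The second th peak spans 16040360 to 16040579 on 3L (220 bp) and is annotated in the first intron, so that th runs toward lower positions. It had 44.6 normalized ChIP reads (32.5 to 59.8), against 0 in the input. With the input set to the floor of 3 reads, or 1.75 normalized reads, the lower limit of its enrichment was 25.6-fold. This limit also takes the ChIP reads as counted. With the counting error of both libraries, the 95% Clopper-Pearson interval started at 19.9. The intervals of ChIP reads did not overlap between this peak and either of the other two. The th 5′ UTR peak held 2.50 times the ChIP reads of the intron peak (95% Clopper-Pearson interval 1.76 to 3.63), or 71.5% of the 156 reads at th. The enrichments of the 3 peaks cannot be put in order, because 2 rest on an input at or under the floor and the intervals overlap.

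**Figure D1:**
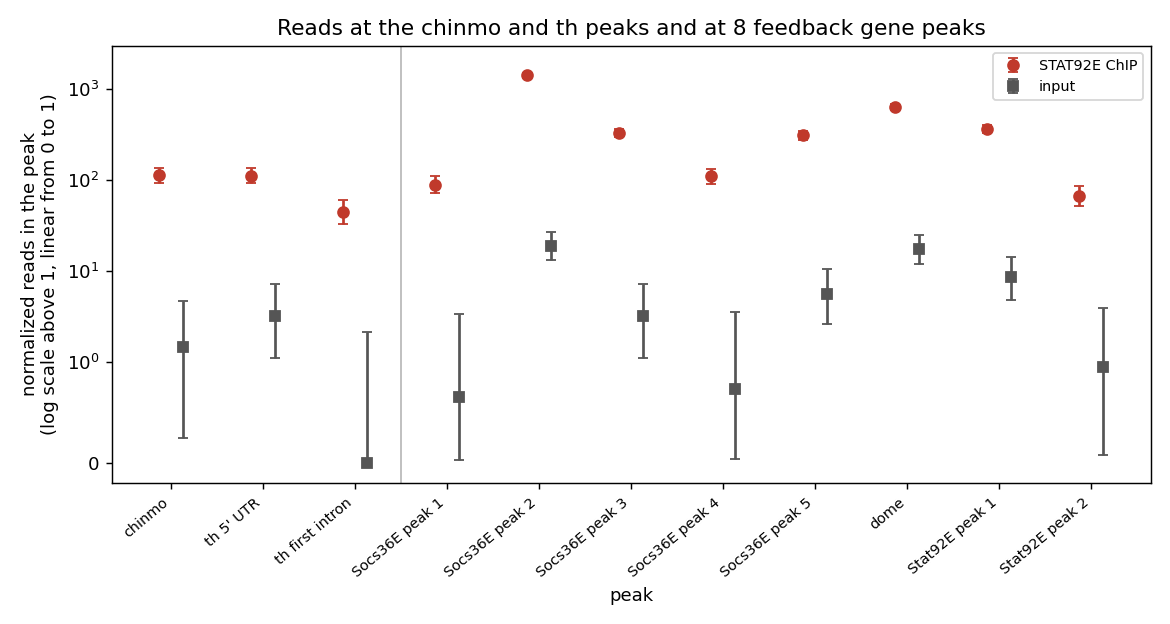
Normalized reads (vertical axis, logarithmic above 1 and linear from 0 to 1) in the STAT92E ChIP library (circles) and the input library (squares) at the chinmo and th peaks and at 8 peaks of Socs36E, dome and Stat92E, with bars for 95% Poisson intervals. ChIP reads were 113, 112 and 44.6 at chinmo, th 5′ UTR and th first intron, and the highest peak was at Socs36E with 1420.

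All 3 peaks had a fold, or a lower limit of it, of at least 20, as had 65.4% of all listed peaks, so this is not particular to chinmo and th. The th intron peak was near this threshold. The lower end of its two-sided 95% Clopper-Pearson interval was 19.9, and with a 99% limit on the input its lower limit was 16.7. The th 5′ UTR peak passed by its value of 34.9, and the lower end of its interval, 15.1, was also under 20. At least 100 ChIP reads were found at chinmo and at the th 5′ UTR peak, against 18% of the list. An input above 3 reads, as at the th 5′ UTR peak, was found in 8.88% of the list, and no input read, as at the th intron peak, in 38.3%. The median of the list was 56.9 ChIP reads and 0.218 input reads. Among the 59 annotated peaks, from which the 3 were taken, the median was higher, 123 ChIP reads. There chinmo ranked 32, the th 5′ UTR peak 33 and the th intron peak 55.

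The 3 peaks also differed in how their reads were spread. The th 5′ UTR peak had the shortest length in the list, 100 bp, and at 1118 normalized ChIP reads per kb (920 to 1345) it was the densest of the 3. chinmo had 663 reads per kb (546 to 798) and the th intron peak 203 (148 to 272), and these intervals do not overlap. The median of the list was 375 per kb, and that of the 59 annotated peaks was 663. Among those 59, chinmo ranked 31, the th 5′ UTR peak 17 and the th intron peak 59. The input was also densest at the th 5′ UTR peak, with 32.0 normalized reads per kb against 8.56 at chinmo and a median of 1.52 in the list. Its input was thus high along with its ChIP reads, and the part of the input in the number of ChIP reads was not tested.

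Each peak was then set beside the other peaks of its own length. Of the 164 other peaks of 100 bp, 2 had more ChIP reads than the th 5′ UTR peak, and their median was 35.6. Of the 86 other peaks of 170 bp, 13 had more than chinmo, with a median of 62.4. At 220 bp, all 35 other peaks had more ChIP reads than the th intron peak, with 51.0 in the lowest and a median of 88.5. So th had a peak with many reads for its length and, 2150 bp away, the peak with the fewest reads of its length. The lengths come from the peak calling, and the shortest, 100 bp, is below the 200 to 400 bp of most sonicated fragments. Where the edges were set therefore enters both the reads per kb and this comparison, and its part was not tested.

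**Figure D2:**
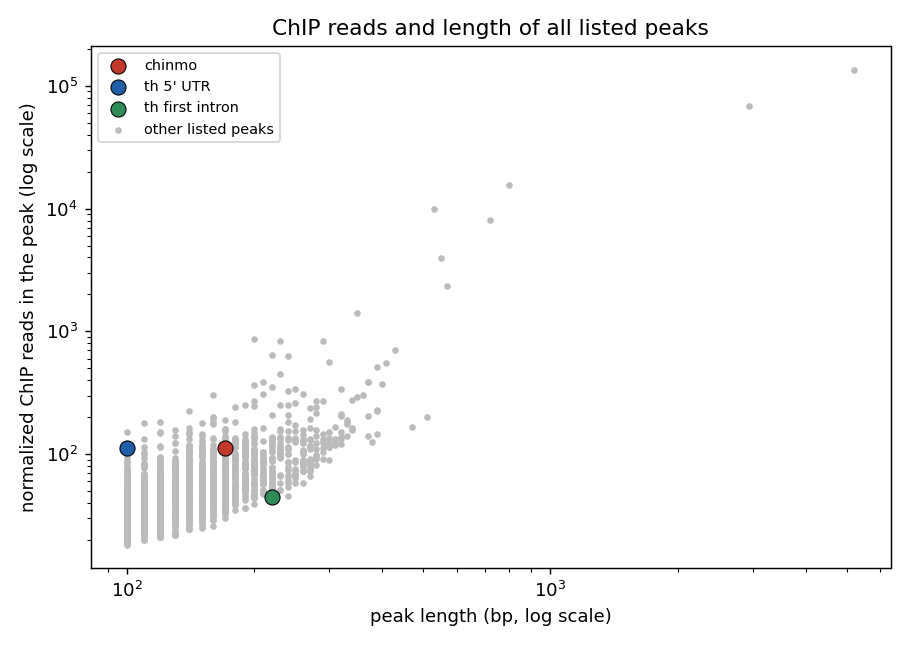
Normalized ChIP reads (vertical axis, logarithmic) against peak length in bp (horizontal axis, logarithmic) for the 1487 listed peaks, with chinmo and both th peaks coloured. The th 5′ UTR peak lies near the top of the peaks of 100 bp, chinmo in the upper part of those of 170 bp, and the th intron peak at the bottom of those of 220 bp.

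The place of the peaks in the list depended on the measure. By ChIP reads, chinmo ranked 206 of 1487 and the th 5′ UTR peak 209, while the th intron peak ranked 982. By ChIP reads per kb, the ranks were 173 for chinmo, 46 for the th 5′ UTR peak and 1410 for the th intron peak. The authors' order follows the listed log2 ratio of ChIP to input at the position where it is largest. It was 5.68 at chinmo, 4.88 at the th 5′ UTR peak and 5.15 at the th intron peak. The listed ratio is finite at the th intron peak, which had no input read, so it is not the plain ratio of these reads. How it was computed is not given in the sources used here. In the authors' order chinmo was peak 365, the th intron peak 1045 and the th 5′ UTR peak 1398. The th peak with more reads thus came after the other. Among the 59 annotated peaks, the listed log2 ratio of the th 5′ UTR peak was the lowest, although this peak ranked 33 by ChIP reads and 17 by ChIP reads per kb.

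The listed p-values and false discovery rates gave opposite orders at th. The -log10 Poisson p was at the cap of the column, 100, at chinmo and at the th 5′ UTR peak, as at 27% of the list. At the th intron peak it was 16.9, the lowest of the 59 annotated peaks, and 17 of the 1487 peaks were lower. The FDR was 0 at chinmo and at the th intron peak, as in 70.5% of the list. At the th 5′ UTR peak it was 0.00202, the largest value in the list, which 223 peaks share.

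**Figure D3:**
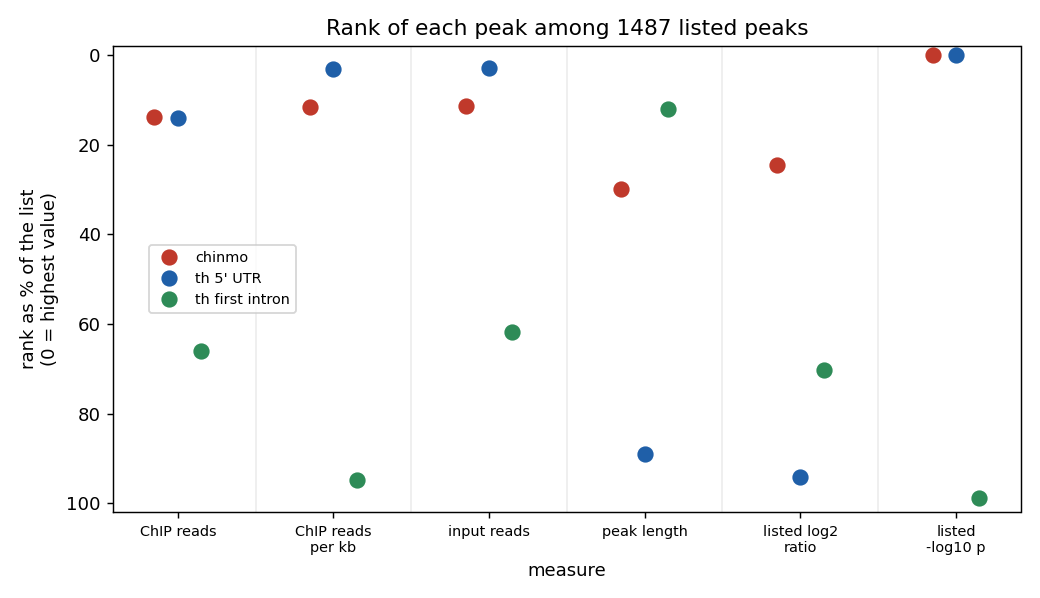
Rank of the chinmo, th 5′ UTR and th first intron peaks among 1487 peaks, as a percent of the list with the highest value at the top (vertical axis), for ChIP reads, ChIP reads per kb, input reads, peak length, listed log2 ratio and listed -log10 p (horizontal axis); peaks tied with others are placed at the best rank of the tie. The th 5′ UTR peak moves from 3.09% by ChIP reads per kb to 94.0% by the listed log2 ratio, and chinmo stays between 11.5% and 29.8% for the plotted measures other than the p-value, where it is tied at the cap.

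The listed summit of the chinmo peak was at 1691172, which is 52 bp from its lower edge and at -32.5 bp from its middle. The largest ratio of ChIP to input lay 53 bp from this summit. In the th 5′ UTR peak the summit was at 16042797, at 17.5 bp from the middle toward higher positions, and the largest ratio was 8 bp away. In the th intron peak the summit was at 16040487, also at 17.5 bp from the middle, and the largest ratio was 2 bp away. The smallest Poisson p lay at -62 bp from the summit in the th 5′ UTR peak, at 3 bp at chinmo and at -2 bp in the th intron peak. The median position of the summit over the list was -22.5 bp from the middle. The th summits were 2310 bp apart, farther than the 200 to 400 bp of most sonicated fragments.

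Other listed peaks near these genes were also looked at. Each of the 3 peaks had another within 20 kb, against 39.4% of the 1202 peaks on the chromosome arms. The peak nearest to chinmo lay 18900 bp away toward higher positions, from 1710190 to 1710309, and had 38.1 ChIP reads against 0.473 in the input. On the other side of chinmo the next peak was 72160 bp away. For th, the other th peak was the nearest. Both were taken because they are annotated to th, so a neighbour within 5 kb, and thus within 20 kb, followed from this choice. A neighbour within 5 kb was found for 14% of the arm peaks. Neither this share nor the 39.4% is therefore a contrast to th. The next listed peak lay 11000 bp upstream of the 5′ UTR peak, from 16053830 to 16053999, with 74.5 ChIP reads against 0.364 in the input. It ranked 275 by the authors' order, before both th peaks. Neither of the neighbours of chinmo and th is in the list of putative targets. They were not assigned to a gene here.

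**Figure D4:**
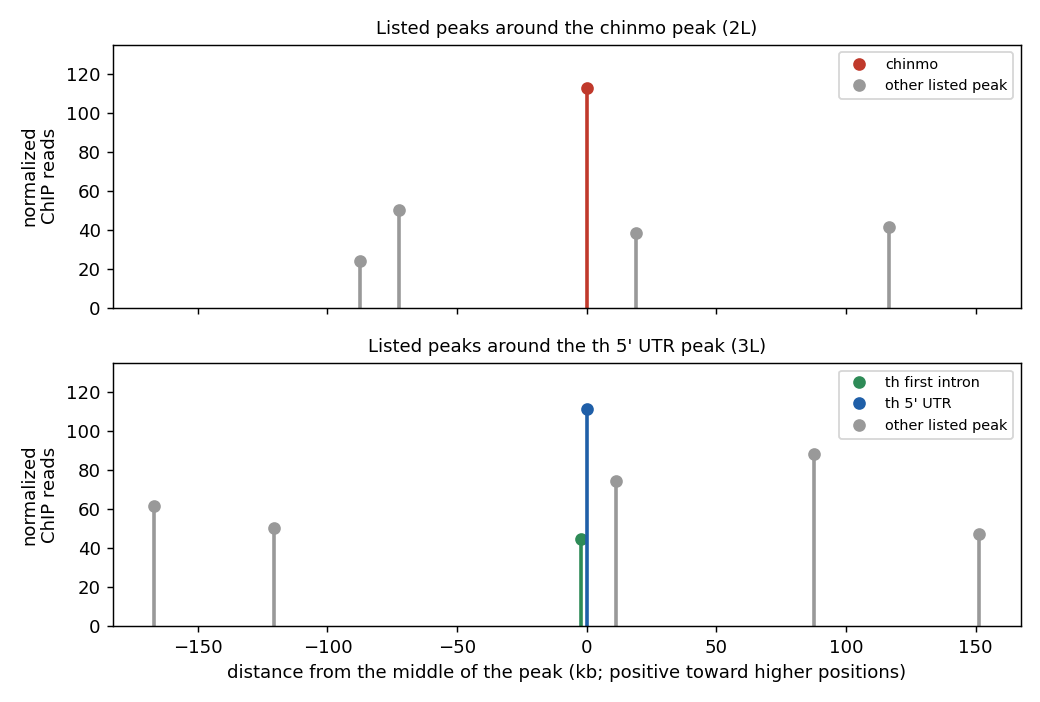
Normalized ChIP reads (vertical axis) of the listed peaks around the chinmo peak (top) and the th 5′ UTR peak (bottom), against the distance in kb from the middle of that peak (horizontal axis). chinmo, with 113 reads, and the th 5′ UTR peak, with 112, were the highest in the windows shown, and the th intron peak, with 44.6, stands at -2.31 kb from the th 5′ UTR peak.

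The peaks were compared with those of Socs36E, dome and Stat92E, which encode a suppressor, the receptor and the transcription factor of the pathway itself. Of these 8 peaks, 5 had more ChIP reads than either chinmo or th, and the range was 67.2 to 1420 reads. All 8 had more than the th intron peak. By ChIP reads per kb, the same number, 5 of the 8, were above the th 5′ UTR peak, with a range of 495 to 4058. The dome peak is annotated in the 5′ UTR as well. There, 644 ChIP reads stood against 17.6 in the input, and its 36.6-fold enrichment (25.4 to 54.6) lay within the interval of the th 5′ UTR peak. So dome had more reads in both libraries, at a fold that could not be told from that of th. The third peak annotated in a 5′ UTR, at CG10623, had 244 ChIP reads against 1.45 in the input.

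The annotated peaks nearest in ChIP reads to chinmo and to the th 5′ UTR peak were the upstream peak of wdp, with 111 reads against 0.255 in the input, and a peak in the third intron of chic, which encodes the actin-binding protein profilin, with 110 reads against 0. They were 270 and 280 bp long, so their reads per kb, 410 and 394, were below those of chinmo and of the th 5′ UTR peak. The nearest to the th intron peak were a peak in the coding sequence of mld, with 46.3 reads against 0.0364, and 1 in the fifth intron of Bsg, with 39.4 reads against 0.473.

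Other genes of survival and self-renewal could be looked up only in the list of putative targets, which is a partial selection. Of 12 genes of apoptosis, among them Diap2, Dronc, Drice, rpr and hid, th was the only one in it. Of 10 genes of self-renewal and progenitor cells, among them zfh1, esg and Dl, chinmo and Socs36E were in it. As th and chinmo were chosen from that list, their presence in it was fixed in advance, and the counts are no result. For the genes not in the list, peaks were not looked up, and nothing follows about binding there.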

How the data were processed

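STAT92E ChIP and input DNA (1 library each) were sequenced by the authors on an Illumina HiSeq instrument. The submitters' processing notes name CASAVA 1.8, Bowtie and build dm3. The peak caller and its settings are not given in the sources used here. The authors deposited 1 list of peaks called on the pair. The deposited signal is the normalized reads of each library in the peak. The authors also deposited the largest log2 ratio, the -log10 of the smallest Poisson p, an FDR p-value and a test statistic (score), none of which was recomputed. The column marked I was taken as the input and M as the ChIP library, after its mouse antibody. No column of single samples was left unused (0 columns).

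ChIP values below 5000 lay on steps of 0.0625 and input values below 50 on steps of 0.0364 (largest deviation 0.0039 of a step). A read wholly in a peak was taken as 16 steps, which gives 0.582 for 1 input read. The list holds no library totals, and the depth of each library is therefore unknown. If the values were scaled to equal depth, the weight of an input read gives a ratio of input to ChIP depth of 1.72. Reads without molecular identifiers are not independent molecules, and intervals cover counting error only. Parts of reads entered the intervals as parts. Peaks were matched to the annotated intervals by equal chromosome, start and end, and locations and site numbers were copied from that annotation. Symbols of both genes were matched in RefSeq (Release 6), of which names only were used. In RefSeq, th is Diap1. No test between conditions was possible with 1 library per group.

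The genes named were chinmo and th, the feedback genes Socs36E, dome and Stat92E, and the 2 annotated peaks nearest in ChIP reads to each peak. The peak at CG10623, the neighbouring peaks and the comparison at equal length were added after the values were seen. Members, lists and alternatives were chosen with earlier results of these data known. Python 3.11.15, numpy 2.4.6, pandas 2.3.3, scipy 1.17.1 and matplotlib 3.10.9 were used, and the intervals and the matching were tested on simulated data.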

Additional observations from a re-analysis of the deposited data

How the results depend on the processing

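Of 38 alternatives computed, 24 left a fold within its counting interval or a count or rank within 1.5 times (or, for the summits, changed only the unit), and 14 did not. These intervals are wide. With 1 read added to both libraries, the fold was 46.3 at chinmo and 45.6 at the th intron peak, and without a floor it was 77.5 at chinmo. The 3 peaks were found with an overlap of 1 bp or a window of 500 bp, and 2 of them had a listed FDR below 0.001. With a 99% limit on the input, the lower limit of the fold was 21.0 at chinmo and 16.7 at the th intron peak, since the limit itself is wider, so that the th intron peak was then under 20-fold. The fold of the th 5′ UTR peak, 34.9, is a value without such a limit and could not change. No ratio without a floor could be given for the th intron peak, which has no input read. A fold of at least 30 was reached by 1 of the 3 peaks and 471 of all peaks, and a fold of at least 10 by 1487. By the order of the list, chinmo ranked 365 and the th 5′ UTR peak 1398, and by ChIP reads per kb the th 5′ UTR peak ranked 46. By fold over input, an alternative added after the data were seen, the ranks were 562 for chinmo, 358 for the th 5′ UTR peak and 633 for the th intron peak. These ranks set the value of the th 5′ UTR peak beside lower limits of the other two, so they do not order the enrichments. Within 5 kb there were 0 other peaks at chinmo and 1 at each th peak, against 1 and 2 within 20 kb. No paired analysis was possible because there was only 1 library of each kind. The count of STAT92E sites in sequence and the search for peaks at other genes were not run, since a genome and annotation of dm3 were not used here. The low input limits the fold of chinmo and of the th intron peak to a lower limit.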

Other observations

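The list held 77 peaks with no input read and 40 to 50 ChIP reads, a range chosen after the values had been seen. The -log10 Poisson p of the th intron peak, 16.9, was the lowest of them (the largest p-value), followed by 18.8, with a median of 45.8 and a highest value of 100.

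At the th 5′ UTR peak, the listed log2 ratio, 4.88 at the position in the peak where it is largest, stood beside a Poisson p-value at the cap of the column. Of the 402 peaks at this cap, 10 had a lower log2 ratio.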
